A study of Mus musculus with 21 samples.

Results

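Transcript levels of 10 genes of cartilage formation were followed through mouse second arch and pinna neural crest and through arches lacking the Hoxa enhancer region HIRE1. The 10 genes were taken by symbol from the 24594 genes of each count table. They are the transcription factor genes Sox9, Sox5, Sox6 and Runx2 and the matrix genes Col2a1, Col9a1, Col11a1, Acan, Matn4 and Comp. RNA-seq covered 21 libraries in 7 groups of 3 samples, deposited as 2 count tables. The first table, of 9 libraries, followed cranial neural crest cells (CNCCs) of Wnt1::Cre;ROSARFP embryos from the second pharyngeal arch (PA2) of E10.5 embryos (E, embryonic day) to the pinna, the outer ear, at E12.5 and E14.5. In these embryos Cre under the Wnt1 promoter marks crest progenitors and their descendants with a red fluorescent protein, by which the cells were sorted. The second table, of 12 libraries, held PA2 and the third arch (PA3) at E10.5 from WT and HIRE1del/del embryos, in which HIRE1 was removed by CRISPR-Cas9 on C57Bl/6J. The submitters titled the deletion delta-E3. For these arches the methods mention dissection and no sort. The colony had a mixed C57Bl/6J;CD1 background, and pools held male and female embryos. Tissue was dissociated with papain at E14.5 and with trypsin at the earlier stages, so stage and enzyme cannot be told apart at E14.5.

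Cartilage forms when mesenchymal cells condense and SOX9, with its partners SOX5 and SOX6, switches on the genes of the cartilage matrix. Type II collagen makes the fibrils, types IX and XI decorate and size them, aggrecan holds water between them, and matrilin-4 and COMP link them into networks. RUNX2 drives the later steps, chondrocyte hypertrophy and bone formation. In the head, neural crest supplies this cartilage, including that of the pinna.

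Depth ranged from 25.81 M to 49.06 M counts per library in the stage table, with the 3 E14.5 libraries the deepest, and from 25.8 M to 32.21 M in the genotype table. Levels are CPM, a gene's counts per 1000000 counts of its library after TMM, a factor for composition, on which 3 counts corresponded to 0.0631 to 0.117 CPM. The marker genes Pdgfra, Prrx1 and Twist1 of crest mesenchyme were present in every group, and their list of 7 summed to 1580 to 3970 CPM in the sorted libraries and to 671 to 1140 CPM in the arches. All samples carry the label cranial neural crest cells, but 5 erythroid genes summed to 1520 to 24300 CPM in the arch libraries against 1.83 to 11.6 CPM in the sorted ones. Endothelial genes summed to 237 to 294 CPM and epithelial genes to 170 to 524 CPM in the arches. The study reports that Hoxa2 and Hoxa3 depend on HIRE1. Hoxa2 stood at 73.4, 77.2 and 84.2 CPM in WT PA2 and at 5.75, 4.75 and 7.10 CPM in HIRE1del/del PA2 and so followed the labels. The corresponding PA3 values were 56.0, 62.9 and 65.1 CPM in WT and 23.7, 25.6 and 22.1 CPM in HIRE1del/del.

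The members lie on 9 chromosomes, with 2 of them, Sox6 and Acan, on chromosome 7. In the GRCm38 annotation GENCODE M21, Sox9 occupies chr11:112782224-112787760 on the plus strand, Col2a1 chr15:97975602-98004695 on the minus strand and Matn4 chr2:164389393-164405160 on the minus strand. Each member is protein coding and was counted over all its exons. Exons of Matn4 overlap those of Rbpjl, a gene on the opposite strand, by 124 bases at the longest single exon. Exons of Sox5 and Runx2 overlap the antisense transcripts Sox5os1 and Runx2os1, by 1330 and 519 bases at the longest single exon. The labels describe the libraries as unstranded but also carry the name of a total RNA kit, and whether strand was kept could not be settled. If it was not, reads from these stretches could come from either gene. RefSeq start sites were at hand for 7 of the 10 members, 14 starts in all. The 250 bases before the start are shown for 3 matrix members whose windows hold no annotated exon and whose levels moved differently between stages (build GRCm38.p6). Capitals mark the SOX strings (CAAAG or CAATG preceded by AA, AT, TA or TT), the RUNX string TGTGGT and the TATA string TATAAA, searched on both strands.
Col9a1, chr1:24177360-24177609, plus strand: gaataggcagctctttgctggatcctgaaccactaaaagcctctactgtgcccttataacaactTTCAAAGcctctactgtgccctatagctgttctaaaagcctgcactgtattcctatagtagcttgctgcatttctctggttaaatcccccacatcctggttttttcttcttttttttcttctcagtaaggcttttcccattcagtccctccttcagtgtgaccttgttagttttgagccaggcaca
Col11a1, chr3:114030290-114030539, plus strand: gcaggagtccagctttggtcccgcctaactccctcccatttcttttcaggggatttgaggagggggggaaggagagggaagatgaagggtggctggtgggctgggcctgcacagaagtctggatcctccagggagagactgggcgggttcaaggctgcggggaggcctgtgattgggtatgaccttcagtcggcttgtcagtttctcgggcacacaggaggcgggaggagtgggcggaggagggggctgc
Acan, chr7:79052976-79053225, plus strand: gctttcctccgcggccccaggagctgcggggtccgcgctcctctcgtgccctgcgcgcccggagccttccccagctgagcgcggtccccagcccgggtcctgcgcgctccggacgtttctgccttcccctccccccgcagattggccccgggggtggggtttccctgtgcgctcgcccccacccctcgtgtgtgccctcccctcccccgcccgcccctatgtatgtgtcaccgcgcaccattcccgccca
Among the 3 windows, that of Col9a1 held the string TTCAAAG, 186 bases before the start, and those of Col11a1 and Acan held none of the strings. The Acan window had 74.4% G and C bases, against 62.4% for Col11a1, 43.6% for Col9a1 and a median of 52.4% over all windows. A SOX string lay before 7 of the members' 14 starts, 6 of them starts of Sox6, and before 21.8% of 32817 windows of the same length genome-wide. The RUNX string lay before 3 of the 14 starts and before 14% of all windows, and the TATA string before 1 of the 14 and before 12.4% of all windows. A match is a description of the letters in a window, not of binding.

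The first comparison asked how the members differed between E10.5 PA2 crest and the E12.5 pinna crest that descends from it. Of the 8 members tested, 5 fell, 1 rose and 2 were not called. Sox9, Sox6, Col2a1, Col9a1 and Acan were lower in the E12.5 pinna, and Matn4 was higher. The test was edgeR's quasi-likelihood test at an adjusted p of 0.05 over 13438 genes, of which 68.8% were called in this comparison, so that being called does not set a member apart. The median log2 fold change over the 8 members was -0.79, against 0.01 over all genes tested. In bulk libraries, fewer cells of a type and less RNA per cell cannot be told apart, here and in every comparison that follows.

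Sox9, the regulator that starts the cartilage programme, was at 77.0, 77.0 and 79.7 CPM in the 3 E10.5 libraries and at 26.1, 37.5 and 27.1 CPM at E12.5. In the E14.5 pinna it was at 1.76, 1.49 and 2.01 CPM, so the 3 stages did not overlap. It fell 2.57-fold to E12.5 (log2 fold change -1.36 ± 0.125 SE, edgeR adjusted p = 2.48e-06) and 17.2-fold more to E14.5 (-4.11 ± 0.16, edgeR adjusted p = 5.99e-09). Over both steps the difference was 44.3-fold (-5.47 ± 0.161, edgeR adjusted p = 1.14e-10), and 243 counts were left in the 3 E14.5 libraries together.

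Sox6, which encodes a partner of SOX9, had 13.8, 18.4 and 15.9 CPM at E10.5, 9.47 CPM or more in the E12.5 libraries (10.1 ± 0.571 SD, n = 3), and 5.24, 7.57 and 5.74 CPM at E14.5. Each stage lay below the one before it in every library. The log2 fold changes were -0.66 ± 0.15 (edgeR adjusted p = 0.00219) and -0.71 ± 0.153 (edgeR adjusted p = 0.00173), smaller than those of Sox9 at both steps. Sox5, the other partner, gave 0 to 21 counts per library in the sorted cells, that is 0 to 0.686 CPM, and did not pass the filter of 1 CPM in 2 libraries. In a fit without the filter its change was -1.34 ± 0.915 to E12.5 (edgeR adjusted p = 0.248), with a 95% interval of -3.29 to 0.61. A difference in Sox5 between stages was not detectable at this depth.

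Runx2, the regulator of hypertrophy and bone, was at 2.24, 3.33 and 4.51 CPM at E10.5, 3.27, 3.66 and 3.94 CPM at E12.5 and 4.21, 3.24 and 5.23 CPM at E14.5. The 3 stages overlapped. Its log2 fold changes were 0.11 ± 0.26 to E12.5 (95% interval -0.46 to 0.68, edgeR adjusted p = 0.726) and 0.22 ± 0.253 from there to E14.5 (-0.34 to 0.78, adjusted p = 0.46). These intervals leave room for a rise of up to 0.68 or 0.78 at a step.

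**Figure D1:**
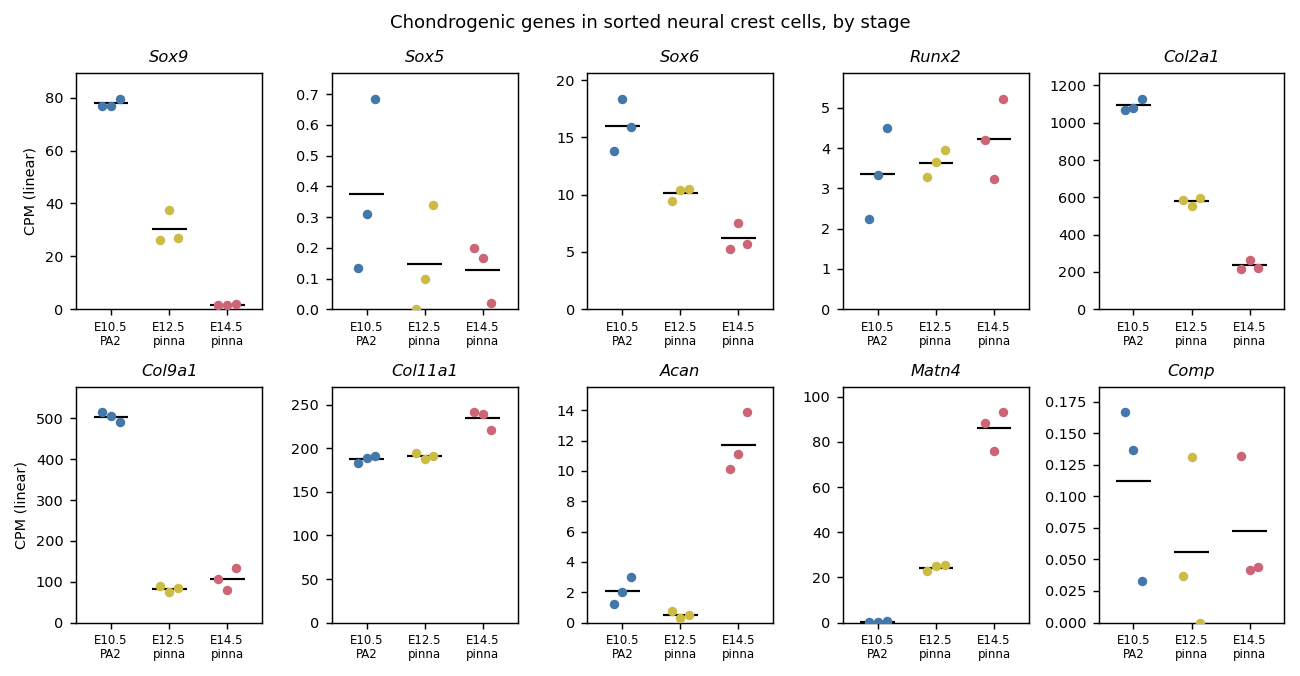
CPM (linear axes from 0) of the 10 members in each library of sorted crest, with the E10.5 PA2 in blue, the E12.5 pinna in yellow and the E14.5 pinna in red, points for the 3 samples and lines for their means. Sox9 goes from 77.0 to 79.7 CPM at E10.5 down to 1.49 to 2.01 CPM at E14.5, Matn4 and Acan are highest at E14.5, and Sox5 and Comp stay under 1 CPM.

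Among the matrix genes, Col2a1, whose product forms the main cartilage collagen fibril, followed the direction of Sox9 with a smaller fold. It was at 1070, 1080 and 1130 CPM at E10.5, at 584, 554 and 596 CPM at E12.5, and at 218, 265 and 221 CPM at E14.5, with no overlap between stages. It fell by 0.92 on the log2 scale to E12.5 (SE 0.0765, edgeR adjusted p = 1.16e-06) and by 1.3 from E12.5 to E14.5 (SE 0.0772, adjusted p = 1.11e-07). At E14.5 Col2a1 still gave 9916 to 12613 counts per library while Sox9 gave 71 to 92.

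Col9a1, a chain of the type IX collagen that coats type II fibrils, was at 516, 505 and 491 CPM at E10.5 and at 89.0, 74.2 and 85.2 CPM at E12.5. This was the steepest fall among the members at the first step, 6.08-fold (log2 -2.61 ± 0.155, edgeR adjusted p = 8.81e-08). The E14.5 libraries read 106, 79.9 and 134 CPM and overlapped those at E12.5. The rise of 0.37 ± 0.148 from E12.5 to E14.5 was called narrowly (edgeR adjusted p = 0.0475). This call was lost with limma-voom (adjusted p = 0.0669), with the 2 groups fitted alone (0.0705), with library totals in place of TMM (0.157), and when any E12.5 library or E14.5 replicate 1 or 3 was left out (adjusted p 0.053 to 0.214). Without E14.5 replicate 3, the highest library, the value was 0.17.

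Col11a1, a chain of the type XI collagen inside the fibril, was the steadiest matrix member. It was at 183, 189 and 191 CPM at E10.5, 195, 188 and 191 CPM at E12.5, and 242, 240 and 221 CPM at E14.5. The first 2 stages overlapped (log2 0.03 ± 0.0547, 95% interval -0.09 to 0.15, edgeR adjusted p = 0.672) and the E14.5 libraries lay above both. Its rise from E12.5 to E14.5 was 1.23-fold (0.29 ± 0.0545, edgeR adjusted p = 0.000637).

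Acan, the gene of the proteoglycan aggrecan, was at 1.24, 1.99 and 3.01 CPM at E10.5, at 0.78, 0.294 and 0.476 CPM at E12.5 and at 10.1, 11.1 and 13.9 CPM at E14.5. It fell 4.07-fold to E12.5 (log2 -2.02 ± 0.389, edgeR adjusted p = 0.000689), from 187 counts in all to 44. It then rose 22.8-fold to E14.5 (4.51 ± 0.36, edgeR adjusted p = 1.02e-06), to a level 5.61-fold above that at E10.5 (2.49 ± 0.299, edgeR adjusted p = 1.06e-05). The 3 stages did not overlap.

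Matn4, which encodes the matrix adaptor matrilin-4, rose at both steps. Its levels were 0.1, 0.412 and 0.654 CPM at E10.5, 22.6, 25.1 and 25.4 CPM at E12.5, and 88.5, 76.1 and 93.3 CPM at E14.5. The first rise was 62-fold (log2 5.95 ± 0.246, edgeR adjusted p = 6.22e-09) and rested on 35 counts in the E10.5 libraries. It ranked 76 by size among the 13438 genes tested. Matn4 was under 1 CPM in every E10.5 library and passed the filter through the pinna libraries alone. The direction and rank of this change are thus tied to the filter. Without E10.5 replicate 3, the highest of its group, the log2 value was 6.56, and without replicate 1 it was 5.50. The second rise was 3.52-fold (1.82 ± 0.143, edgeR adjusted p = 9.25e-07). Rbpjl, whose exons overlap those of Matn4, moved with it, from at most 0.098 CPM at E10.5 to 0.706 to 1.14 CPM at E12.5 and 3.64 to 4.03 CPM at E14.5, a small share of the Matn4 level at each stage. Comp, whose product binds collagen fibrils, gave 0 to 6 counts per library at all 3 stages and was not tested. Without the filter its changes were -0.94 ± 1.1 and 0.31 ± 1.11 (edgeR adjusted p = 0.49 and 0.846).

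From E12.5 to E14.5, 4 of the 8 members tested rose (Col9a1, Col11a1, Acan and Matn4), 3 fell (Sox9, Sox6 and Col2a1) and Runx2 was not called. Matrix genes accounted for all 4 rises. The background share called was 65.7%, and the median log2 fold change of the 8 members was 0.26, against -0.01 over all genes. Scaling by library totals alone shifted the median of all genes in this comparison to -0.131 and the share of higher genes among those called from 49.7% to 38.5%. On that scale the members' directions stayed, with Col11a1 at 0.17 (edgeR adjusted p = 0.0225) and Matn4 at 1.69.

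**Figure D2:**
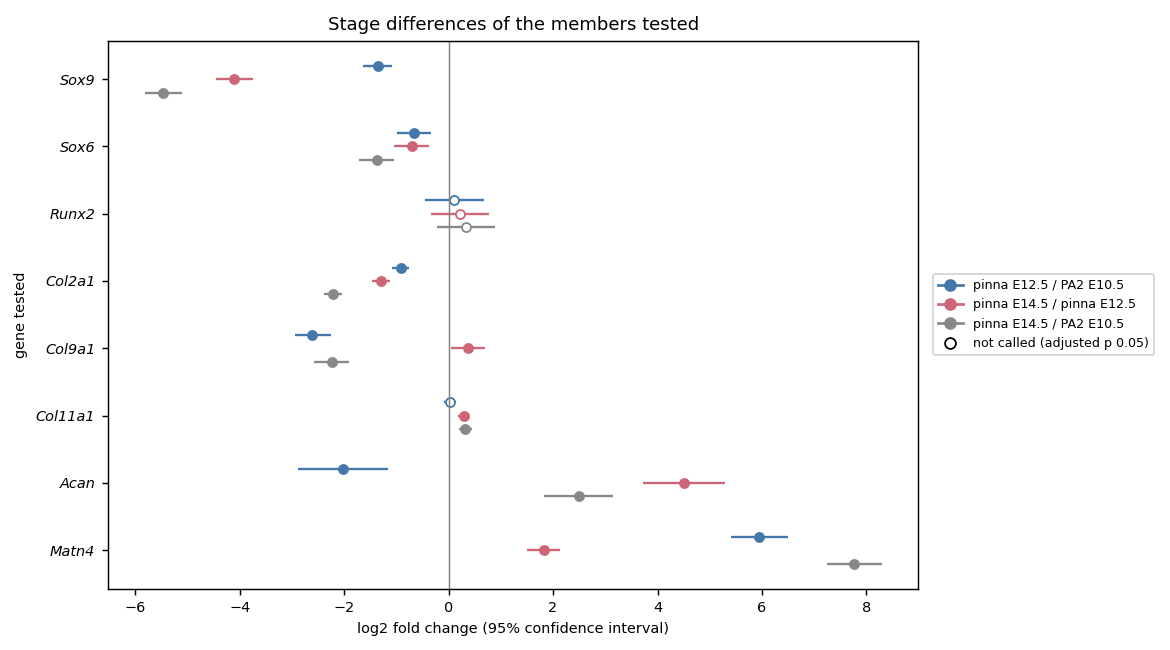
Log2 fold changes (horizontal axis) of the 8 members tested between stages, with 95% confidence intervals, in blue for E12.5 against E10.5, red for E14.5 against E12.5 and grey for E14.5 against E10.5, and open points where the adjusted p missed 0.05. Sox9, Sox6 and Col2a1 lie left of 0 in all 3 comparisons, Matn4 lies right of 0 in all 3, and Acan changes side from -2.02 to 4.51.

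Over the whole interval from E10.5 to E14.5, Sox9, Sox6, Col2a1 and Col9a1 were lower and Col11a1, Acan and Matn4 higher, and 82% of all genes tested were called. This comparison shares its libraries with the other 2. Col2a1 and Col9a1 changed by -2.22 ± 0.0793 (edgeR adjusted p = 4.52e-10) and -2.24 ± 0.152 (adjusted p = 7.4e-08). Matn4 rose 218-fold (7.77 ± 0.234, edgeR adjusted p = 1.3e-10), with a log2 value of 8.38 without E10.5 replicate 3 and of 7.32 without replicate 1.

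Levels can be set side by side between genes only per length, as CPM per kilobase of exon. At E10.5 the order was Col2a1 (182 ± 5.76 SD, n = 3), Col9a1 (99.4 ± 2.54), Col11a1 (19.4 ± 0.419) and Sox9 (18.8 ± 0.373), then Sox6 (1.24 ± 0.178), with Runx2, Acan, Matn4, Comp and Sox5 under 0.4. Col11a1 and Sox9 did not differ beyond their spread, nor did Runx2 and Acan, nor the last 3. At E14.5 Col2a1 still led (39.1 ± 4.39), and Col11a1 (24.2 ± 1.22) and Col9a1 (21.0 ± 5.37) followed within each other's spread. Matn4 (16.6 ± 1.72) overlapped Col9a1 and lay below Col11a1, and Acan came next (1.56 ± 0.263). Runx2 (0.478 ± 0.113), Sox6 (0.477 ± 0.0945) and Sox9 (0.425 ± 0.0631) then formed a group without separation. Sox9 thus went from the level of a fibril collagen chain to that of Runx2 on this scale, a description on which no test was run.

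Markers of other cell types also changed across the same stages, where 68.8% of all genes tested were called at the first step and 65.7% at the last. The 6 melanocyte genes (Mitf, Dct, Pmel, Tyrp1, Tyr and Mlana) summed to 5.92 to 7.96 CPM at E10.5, 31.8 to 44.6 CPM at E12.5 and 348 to 398 CPM at E14.5, and all 6 rose at both steps. The 8 glial genes summed to 23.4 to 28.4, 25.5 to 30.0 and 105 to 119 CPM, with 6 of 6 tested higher at the last step, Foxd3 at 0 in every sorted library and S100b at most at 0.635 CPM. The 6 neuronal genes summed to 36.8 to 43.3, 30.2 to 36.0 and 11.7 to 18.9 CPM, with 3 of 4 tested lower and 1 higher at the first step and 1 lower and 1 higher at the last. Summed levels of the 7 crest mesenchyme genes were 1580 to 1830, 3280 to 3550 and 3570 to 3970 CPM. Single genes of this list went both ways, 4 higher, 2 lower and 1 not called at the first step and 4 higher and 3 lower at the last. The part of these shifts in the members' changes was not tested. Otic and notochord markers, lists of genes from tissues that also express Sox9 and Col2a1, summed to 0.551 to 0.925 CPM and to 0.189 to 0.263 CPM at E14.5. Epithelial and endothelial markers summed to 24.8 to 42.6 CPM and 108 to 173 CPM at E14.5, above both earlier stages. The lists did not rise as wholes from E12.5 to E14.5. Of 5 epithelial genes tested 3 were higher and 2 lower, and of 4 endothelial genes 1 was higher and 3 were not called.

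Other genes of the cartilage matrix also moved in both directions. From a list of 13, 6 were tested, and from E10.5 to E12.5 3 rose, 1 fell and 2 were not called. Of all genes tested, 68.8% were called at this step and 65.7% at the next. Epyc, a small proteoglycan of growing cartilage, rose from 0.167 to 2.00 CPM (log2 3.55 ± 0.586, edgeR adjusted p = 0.000223), Matn3, a relative of Matn4, fell from 2.43 to 0.388 CPM (-2.63 ± 0.404, adjusted p = 0.000133), and the collagen genes Col27a1 and Col9a3 rose by 0.61 and 0.55. Between E12.5 and E14.5 Col9a2 (29.1 to 142 CPM, log2 2.29 ± 0.165), Col9a3 (8.98 to 40.5 CPM, 2.17 ± 0.164) and Col27a1 (108 to 410 CPM, 1.92 ± 0.126) rose and Epyc returned to 0.182 CPM (-3.44 ± 0.542). Col9a2 and Col9a3 encode the partner chains of Col9a1 in type IX collagen, and at this step their folds were larger than its 0.37. Epyc averaged under 1 CPM at E10.5 and E14.5 and passed the filter through the E12.5 libraries alone, so its rise and return are tied to the filter. The 7 untested matrix genes are named after their values were seen. Matn1 had no count in any sorted library, and Col11a2, Chad, Snorc and Scrg1 averaged at most 0.115 CPM in every stage. Cnmd averaged 0.055, 0.177 and 0.903 CPM and Ucma 0.0223, 0.309 and 0.839 CPM from E10.5 to E14.5, and at E14.5 they had 125 and 116 counts in all. The sum over the list of 13 was 93.8 to 124 CPM at E10.5 and 506 to 674 CPM at E14.5.

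Of 15 other regulators of cartilage, 11 were tested, with 7 lower, 3 higher and 1 not called from E10.5 to E12.5. From E12.5 to E14.5, 8 were lower, 2 higher and 1 not called. The shares called over all genes tested were 68.8% and 65.7%. The forkhead genes Foxc1 (131 to 5.32 to 1.04 CPM) and Foxc2 (43.6 to 2.74 to 0.0634 CPM) fell at both steps, by 4.63 and 3.99 and then by 2.34 and 5.32 on the log2 scale. Nkx3-2, a homeobox gene of early cartilage, fell from 5.05 to 0.248 CPM (-4.31 ± 0.339, edgeR adjusted p = 3.34e-06) and had 0 counts in all E14.5 libraries, at least 3.82-fold lower than at E12.5 against a floor of 3 counts per library. Barx1, a homeobox gene of arch mesenchyme, went from 102 to 27.0 to 4.13 CPM, the second step by -2.70. Chrd, encoding the BMP antagonist chordin, rose at both steps (6.07 to 34.7 to 91.5 CPM, log2 2.51 and 1.40). The list's median log2 fold change was -0.52 and then -0.95, the latter also with Nkx3-2 at its bound, against 0.01 and -0.01 over all genes.

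Elastic fibre genes were listed because the pinna forms elastic cartilage. All 8 tested of 9 rose from E10.5 to E12.5 (median log2 1.2) and 7 rose again to E14.5 (median 0.51), with Mfap2 not called. Over all genes tested, 68.8% were called at the first step and 65.7% at the second. Of those called, 51% and 49.7% were higher, and the medians over all genes were 0.01 and -0.01. Eln, encoding elastin, went from 13.3 to 82.9 to 1180 CPM (2.63 ± 0.137, edgeR adjusted p = 3.43e-08, and 3.84 ± 0.135, adjusted p = 3.34e-09). Lox, the enzyme that cross-links elastin and collagen, went from 27.1 to 219 to 346 CPM (3.01 and 0.66). Fbn1 rose by 1.61 and Fbln5 by 1.57 at the first step, Mfap4 by 0.70 and Fbn2 by 0.51 at the second. The list summed to 1590 to 1820, 3140 to 3300 and 5030 to 6130 CPM at the 3 stages.

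**Figure D3:**
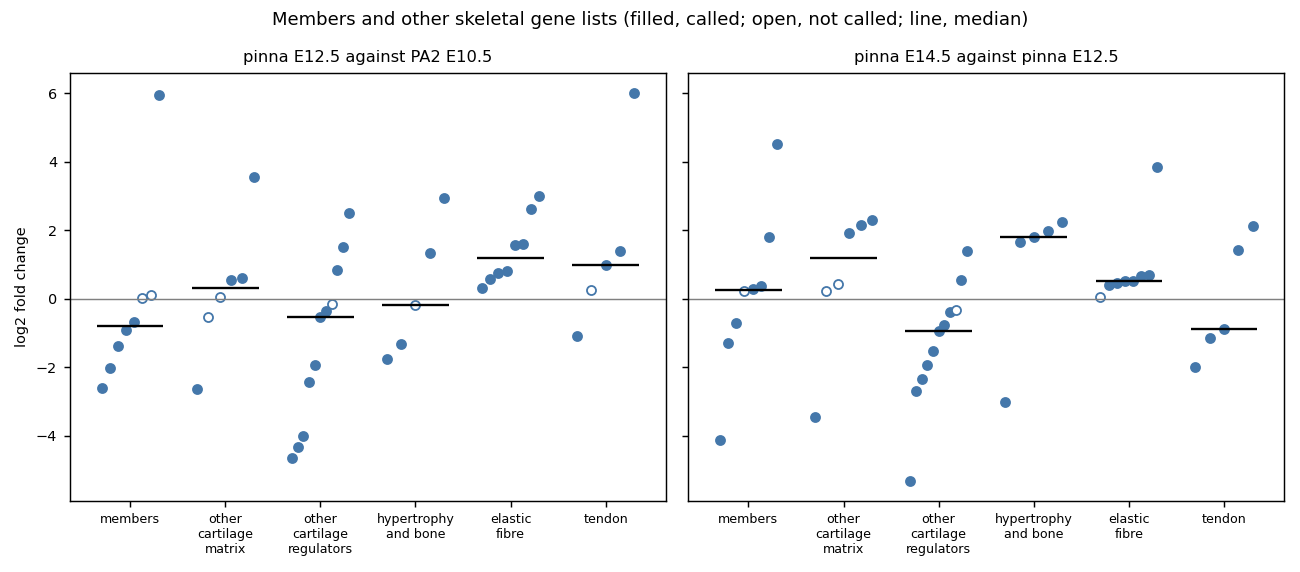
Log2 fold changes (vertical axis) of the tested genes of the members and of 5 other skeletal lists at the 2 stage steps, filled where called and open where not, with the median as a line and Nkx3-2 at its bound in the right panel. All 8 elastic fibre genes lie above 0 at the first step, where the members spread from -2.61 to 5.95.

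The genes whose stage pattern lay nearest to a member's were found by the root mean square difference of centred log2 CPM over the 9 libraries. For Sox9 they were Greb1 (0.406), Sdsl (0.462), H2ac8 (0.464), Six4 (0.466) and Arg2 (0.501), against an SD of 2.47 for Sox9 itself. For Col2a1 (SD 0.971) they were Macroh2a2 (0.0717), Cfap20dc (0.0751), Rfc4 (0.0791), Chaf1b (0.102) and Cbx2 (0.105). For Matn4 (SD 3.73) they were Ntsr1 (0.293), Kcne4 (0.395), Zfp831 (0.463), Sv2b (0.504) and Ramp1 (0.553). No member was among the nearest 5 genes of these 3 members.

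The deletion of HIRE1 was compared with WT within each arch. In PA2, 0 of the 7 members tested were called by edgeR, with 2 at an unadjusted p under 0.05, 1 called by DESeq2 and 0 by limma-voom. The background was 0.438% of 14383 genes called by edgeR, 1.13% by DESeq2 and 0.473% by limma-voom. Of these genes, 1233 were at an unadjusted edgeR p under 0.05. Acan, Matn4 and Comp did not pass the filter in this table, at 0.312 to 0.85, 0.0702 to 0.232 and 0.0387 to 0.316 CPM in the 6 PA2 libraries.

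Col2a1 was at 745, 860 and 816 CPM in WT PA2 and at 1010, 923 and 954 CPM in HIRE1del/del PA2, with every mutant library above every WT library. The log2 difference was 0.25 ± 0.0645 (95% interval 0.11 to 0.39) and did not pass over all genes (edgeR adjusted p = 0.177), while DESeq2 gave an adjusted p of 0.0167. Over all alternatives its adjusted p ranged from 0.0167 to 0.567. Col9a1 was at 294, 369 and 363 CPM in WT and at 394, 390 and 434 CPM without HIRE1, again without overlap, with a difference of 0.25 ± 0.184 (edgeR adjusted p = 0.774). Col11a1 was at 121, 139 and 142 CPM in WT and 130, 126 and 145 CPM in the mutant and overlapped (0.00 ± 0.0864, 95% interval -0.19 to 0.18).

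Sox9 stood at 38.6, 38.2 and 40.4 CPM in WT PA2 and at 45.3, 43.5 and 49.3 CPM in the mutant, without overlap. The difference was 0.24 ± 0.111 (95% interval 0.00 to 0.47) and was not called (edgeR adjusted p = 0.594). Sox6 was at 18.4, 17.8 and 17.6 CPM against 20.5, 22.3 and 20.6 CPM (0.24 ± 0.0827, 95% interval 0.06 to 0.42, edgeR adjusted p = 0.415), also without overlap. Sox5 ranged from 2.37 to 2.79 CPM in WT and from 2.18 to 4.4 CPM in the mutant (0.28 ± 0.25, adjusted p = 0.812), and Runx2 from 0.968 to 2.00 and from 0.94 to 2.44 CPM (0.05 ± 0.368, adjusted p = 0.986). Groups did not overlap for 4 of the 7 members, all 4 with the mutant higher. Over all genes tested, every mutant library lay above every WT library for 5.73% and below for 7.52%. The median difference over the 7 members was 0.24 against -0.01 over all genes. In the same libraries the 6 neuronal markers summed to 76.1 to 78.0 CPM in WT and 56.7 to 58.6 CPM in the mutant. The 8 glial markers summed to 47.9 to 54.0 and 35.7 to 45.0 CPM. The 7 crest mesenchyme markers summed to 1020 to 1130 CPM in WT and 998 to 1140 CPM in the mutant. The median log2 differences of the neuronal, glial and crest mesenchyme lists were -0.42, -0.35 and 0.16. Gene by gene, 0 of 6 neuronal, 0 of 5 glial and 0 of 7 crest mesenchyme markers tested were called. Whether these marker levels play a part in the members' values was not tested.

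In PA3, 0 of 7 members were called by edgeR, DESeq2 or limma-voom, and 0 were at an unadjusted p under 0.05. Of all 14383 genes, edgeR called 0.216%, DESeq2 0.654% and limma-voom 0.271%, and 1400 were at an unadjusted edgeR p under 0.05. Sox9 was at 24.9, 34.8 and 34.4 CPM in WT PA3 and at 26.3, 24.8 and 29.8 CPM in the mutant, which overlap (-0.22 ± 0.113, 95% interval -0.46 to 0.02, edgeR adjusted p = 0.562). Col2a1 was at 623, 635 and 704 CPM and at 592, 588 and 636 CPM (-0.11 ± 0.0646, 95% interval -0.25 to 0.03, edgeR adjusted p = 0.612). Col9a1 was at 104, 195 and 202 CPM in WT and at 158, 156 and 188 CPM in the mutant (0.00 ± 0.186, 95% interval -0.40 to 0.40), with WT replicate 1 apart from its group. Sox6 (18.3 to 22.5 CPM), Sox5 (2.12 to 3.25 CPM), Runx2 (1.68 to 2.99 CPM) and Col11a1 (92.7 to 115 CPM) also overlapped between genotypes.

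**Figure D4:**
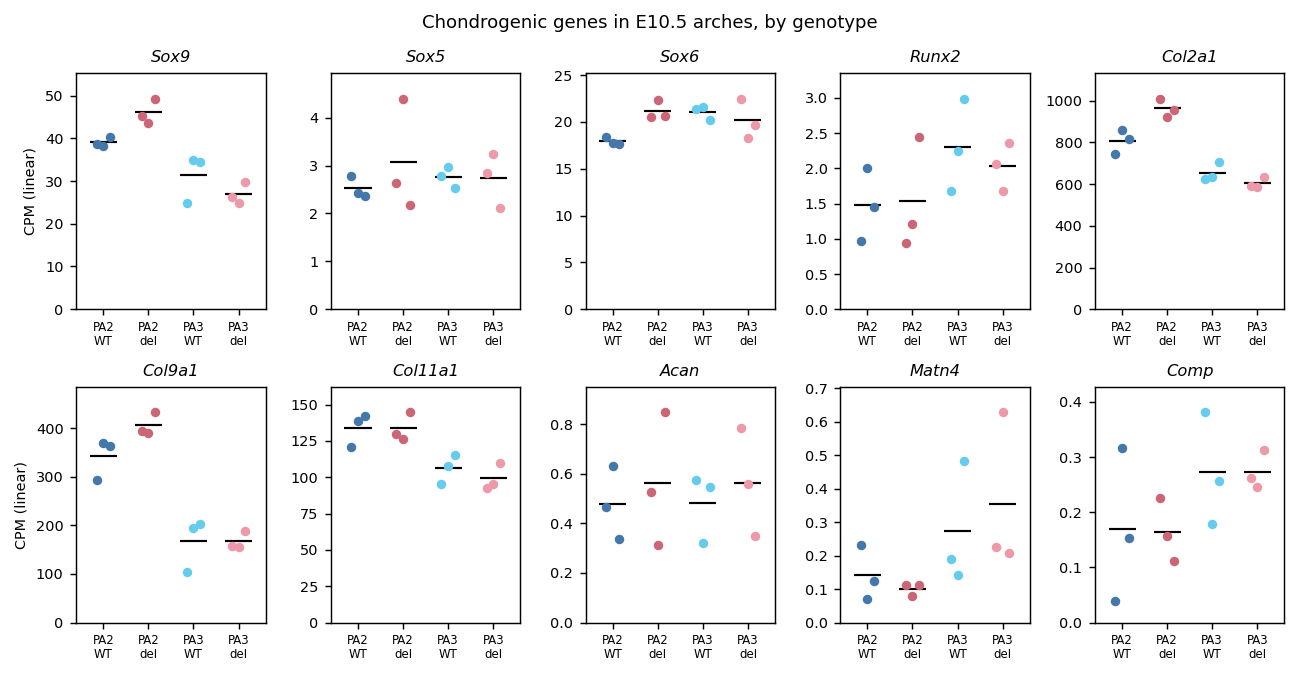
CPM (linear axes from 0) of the 10 members in each E10.5 arch library, WT in blue shades and HIRE1del/del (del) in red shades, with points for the 3 samples and lines for their means. In PA2 the mutant points of Sox9, Sox6, Col2a1 and Col9a1 lie above all WT points, and in PA3 the genotypes overlap.

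The difference between the HIRE1 effects in the 2 arches was tested as an interaction. By edgeR 0 of 7 members were called, with 3 at an unadjusted p under 0.05, 1 called by DESeq2 and 0 by limma-voom. Over all 14383 genes the share called was 0.0487% by edgeR, 0.202% by DESeq2 and 0.0487% by limma-voom. An unadjusted edgeR p under 0.05 was reached by 794 of them. The largest among the members was that of Sox9 at 0.46 ± 0.158 (95% interval 0.12 to 0.80, edgeR adjusted p = 0.887), followed by Col2a1 at 0.36 ± 0.0913 (0.17 to 0.56, edgeR adjusted p = 0.57, DESeq2 adjusted p = 0.0494). Sox6 and Sox5 followed with 0.30 ± 0.117 and 0.30 ± 0.353. A p that misses the threshold does not show that the 2 arches respond alike.

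WT PA3 was also compared with WT PA2. Of the 7 members tested 4 were lower in PA3 (Sox9, Col2a1, Col9a1 and Col11a1), Sox6 was higher, and Sox5 and Runx2 were not called, with 36.5% of all genes called. Col9a1 differed most, 2.05-fold (log2 -1.04 ± 0.187, edgeR adjusted p = 0.000891), and without PA3 replicate 1, its lowest library, the value was -0.78 and still called. Col11a1, at 95.6, 108 and 115 CPM in PA3 against 121, 139 and 142 CPM in PA2, differed by -0.33 ± 0.0867 (adjusted p = 0.00898). Col2a1 differed by -0.30 ± 0.0646 (adjusted p = 0.00268).

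Sox9 was 1.24-fold lower in PA3 (-0.32 ± 0.111, edgeR adjusted p = 0.0403) and Sox6 1.17-fold higher, at 21.4, 21.6 and 20.2 CPM (0.23 ± 0.0826, edgeR adjusted p = 0.0415), and both calls were narrow. Both were lost when any PA2 replicate or PA3 replicate 1 was left out, and without PA3 replicate 1 Sox9 stood at -0.17 (adjusted p = 0.138). The Sox6 call was also lost without PA3 replicate 2 (adjusted p = 0.112) and without the filter (0.079), and the Sox9 call with the groups fitted alone (0.0643) and with 1 CPM asked of every library (0.0619). Sox5 (0.13 ± 0.25) and Runx2 (0.65 ± 0.355, 95% interval -0.12 to 1.42, adjusted p = 0.171) overlapped between arches. In these libraries the erythroid markers summed to 1520 to 2380 CPM in PA2 and 12300 to 24100 CPM in PA3, epithelial markers to 184 to 204 and 407 to 524 CPM, and neuronal markers to 76.1 to 78.0 and 149 to 205 CPM. The crest mesenchyme list summed to 1020 to 1130 CPM in PA2 and 679 to 844 CPM in PA3. Of its 7 genes tested 4 were lower in PA3, 1 was higher and 2 were not called. Of 6 epithelial genes tested 4 were higher, 1 was lower and 1 was not called. All 6 neuronal and all 5 erythroid genes tested were higher, where 36.5% of all genes were called. Endothelial markers summed to 238 to 249 CPM in PA2 and 277 to 294 CPM in PA3, with 4 of 5 tested higher and 1 not called. Of 5 muscle genes tested 1 was higher, 2 were lower and 2 were not called, and of 4 immune genes 0 were called. Otic markers summed to 1.48 to 3.4 CPM in PA2 and 11.3 to 20.0 CPM in PA3, and only 1 of the 5, Lmx1a, passed the filter. It was higher in PA3 (log2 2.79 ± 0.334). A gene this low in PA2 can pass the filter through the PA3 libraries, so this call does not speak for the list. Glial markers summed to 47.9 to 54.0 and 103 to 139 CPM, with 2 of 5 tested higher. The part of this makeup in the arch differences was not tested.

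**Figure D5:**
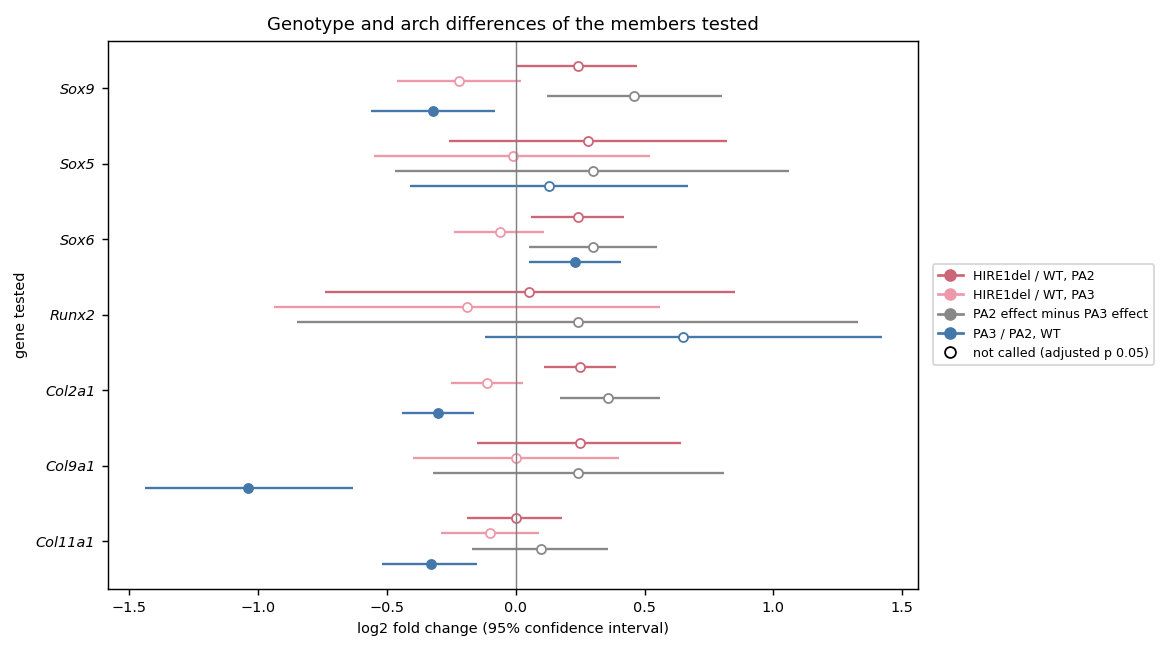
Log2 differences (horizontal axis) of the 7 members tested in the arch libraries, with 95% confidence intervals, for HIRE1del/del against WT in PA2 (red) and PA3 (pink), the difference of those effects (grey) and WT PA3 against WT PA2 (blue), open where the adjusted p missed 0.05. All HIRE1 points are open, and the farthest from 0 is Col9a1 between the arches at -1.04.

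In WT PA2, per kilobase of exon, the order was Col2a1 (135 ± 9.69 CPM per kilobase, SD, n = 3), Col9a1 (67.5 ± 8.19), Col11a1 (13.9 ± 1.13), Sox9 (9.45 ± 0.282) and Sox6 (1.38 ± 0.0292). Sox5 (0.176 ± 0.0159) and Runx2 (0.167 ± 0.0584) did not differ beyond their spread, and Acan, Comp and Matn4 were under 0.07. The 2 tables were scaled separately, so the levels of sorted crest and whole arch are given without a test. The study's RNA libraries were sequenced single-end or paired-end, and it did not compare the 2 kinds with each other. Sox5 was at 0.134 to 0.686 CPM in sorted PA2 crest and at 2.37 to 2.79 CPM in WT PA2. Sox6, Comp and Matn4 overlapped between sorted crest and WT PA2. Sox6 was at 13.8 to 18.4 and 17.6 to 18.4 CPM, and Comp and Matn4 gave at most 20 counts per library. Every sorted library was higher for Runx2, Col9a1, Col11a1, Acan, Sox9 (means 77.9 against 39.1 CPM) and Col2a1 (1090 against 807 CPM).

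Over the 12 arch libraries the genes nearest to Sox9 (SD 0.34) were Rnf157 (0.109), Galnt18 (0.118), Trim29 (0.121), Ankrd13b (0.122) and Col2a1 (0.127), in root mean square log2 difference. Those nearest to Col2a1 (SD 0.282) were Ankrd13b (0.0475), Megf6 (0.0801), Pcolce (0.0862), Cdon (0.0871) and Abat (0.0895). Here a member, Col2a1, was among the 5 nearest to Sox9.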

How the data were processed

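The authors deposited whole-number read counts per gene for 9 and 12 libraries. Per the study's methods, reads were aligned to mm10 with QuasR 1.34.0 (Rhisat2 1.12.0, spliced) and counted over TxDb.Mmusculus.UCSC.mm10.knownGene 3.4.7 genes with orientation opposite, although the libraries are described as unstranded and a second kit name is given; bcl2fastq 2.17 and 2.20 are named in the submitters' notes. How this setting changed the counts was not tested. Groups came from titles, and replicates are described as independent.

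Each table was fitted whole in edgeR 4.0.16 (R 4.3.3; TMM, 1 CPM in 2 libraries, quasi-likelihood test, 2-sided, Benjamini-Hochberg, called at an adjusted p under 0.05), testing 13438 and 14383 genes. The script was tested on simulated data. Alternatives were DESeq2 1.42.0, limma-voom 3.58.1, other scalings, filters and thresholds, replicate blocks and leaving out each replicate. Named genes were the members, the called genes of the other lists in the genotype and arch comparisons, up to 4 called genes of largest change per list at the stage steps, and the 5 nearest genes. The members and lists were chosen with earlier results of these data known.

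Same-numbered PA2 and PA3 libraries deviated together (r 0.204 to 0.337 in WT and 0.146 to 0.304 in HIRE1del/del), so numbers pair the arches. No such pattern joined stages or genotypes. Depth limits and floors cover counting error only. Replicate libraries differed beyond counting noise (chi-square per degree of freedom 6.68 to 44.2).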

Additional observations from a re-analysis of the deposited data

How the results depend on the processing

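Over 52 pairs of member and comparison, 819 alternative values were computed, of which 775 kept direction and side of the threshold, 20 lost the call, 2 gained it and 22 changed sign, all 22 of them in values that were never called. The count of members called from E12.5 to E14.5 went from 7 to 4 when a log2 fold change of at least 1 was also asked for. With DESeq2 the count rose from 0 to 1 in PA2 and from 0 to 1 for the difference between arches, each time through Col2a1. The count of 5 for WT PA3 against PA2 went to 3 at an adjusted p under 0.01, to 1 at a log2 fold change of at least 1, and to between 3 and 5 when single libraries were left out. The cause of these shifts was not tested, except that a stricter threshold passes fewer genes.

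The values that changed sign lay between -0.19 and 0.30 on the log2 scale in the report. Col11a1 in PA2 (0.00) read 0.01 without the filter, 0 with 1 CPM asked of every library and 0 with the groups alone, and -0.07 to 0.04 with single libraries left out. Runx2 in PA2 read -0.01 with limma-voom. Col9a1 in PA3 (0.00) read -0.02 with library totals, -0.01 with 1 CPM in every library and -0.25 to 0.16 with libraries left out. With single libraries left out, Sox5 ran from -0.07 to 0.48 in PA2, from -0.16 to 0.14 in PA3 and from -0.05 to 0.49 for the difference between arches. Runx2 ran from -0.12 to 0.38 between E10.5 and E12.5, from -0.46 to 0.33 in PA2, from -0.37 to 0.04 in PA3 and from -0.27 to 0.52 for the difference, and Sox6 from -0.15 to 0 in PA3.

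With the replicate number as a block the counts of members called were 6, 7 and 7 for the stage comparisons, 0, 0 and 0 for the HIRE1 comparisons and 5 for the arches, all as without it. With the pairing of PA2 and PA3 libraries as a block they were 5 for the arches and 0 for the difference, while the genes called in all for the difference went from 7 to 26. Between stages and genotypes the samples share only a number, and the block took the genes called in HIRE1del/del PA2 from 63 to 105, in PA3 from 31 to 54 and for the difference from 7 to 12. With single libraries left out these counts ran from 33 to 66, from 8 to 28 and from 3 to 12. DESeq2 called 162 and 94 genes there and 29 for the difference. Depth limits Sox5 and Comp in sorted crest and Acan, Matn4 and Comp in the arches, which no fit called.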

Other observations

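Genes of hypertrophic cartilage and bone formed a list of 11 with 5 tested. At the first stage step 2 were higher, 2 lower and 1 not called, and at the second 4 were higher and 1 lower. At these steps 68.8% and 65.7% of all genes tested were called. From E10.5 to E12.5 Phex, an endopeptidase of mineralising tissue, rose from 0.956 to 7.39 CPM (log2 2.95 ± 0.277) and Alpl, alkaline phosphatase, 2.53-fold from 4.92 CPM (SE 0.14 on the log2 scale), while Sp7, a transcription factor of bone, and Spp1, osteopontin, fell (-1.74 ± 0.272 and -1.33 ± 0.288). From E12.5 to E14.5 Phex fell to 0.914 CPM (-3.01 ± 0.269), and Sp7 (2.24 ± 0.267), Alpl (1.97 ± 0.125) and Mef2c (1.82 ± 0.105) rose. Spp1 also rose at this step. Col10a1, the collagen of hypertrophic chondrocytes, averaged at most 0.0881 CPM at any stage and is named after its values were seen. Of 6 tendon genes 5 were tested. Thbs4 rose to 27.0 CPM at E12.5 and fell to 12.4 CPM at E14.5 (1.39 and -1.13), and Mkx went the same way (1.00 and -2). Scx fell from 13.4 to 6.31 CPM at the first step (-1.08 ± 0.285). Kera rose from 0.0564 CPM, 5 counts in all, to 3.84 and then 10.4 CPM (6.02 ± 0.34 and 1.43 ± 0.177), and Fmod rose at the second step (2.13 ± 0.343). Kera passed the filter through the pinna libraries alone. In these sentences all changes named as a rise or fall passed edgeR's test at an adjusted p under 0.05.

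In HIRE1del/del PA2, Barx1 was the 1 gene called among the 38 tested of the 54 in these 5 lists, where 0.438% of all genes were called. It stood at 93.7 against 54.9 CPM in WT (log2 0.77 ± 0.118, edgeR adjusted p = 0.00853). From these libraries the study itself lists Barx1 among upregulated genes that Hoxa2 is known to repress. Between WT PA3 and WT PA2, 17 of the same 38 genes were called, beside 36.5% of all genes tested. In WT PA3, against PA2, type IX collagen split, with Col9a2 (53.1 against 27.6 CPM, 0.95 ± 0.121) and Col9a3 (12.4 against 4.38 CPM, 1.5 ± 0.219) higher where Col9a1 was lower. Cnmd, encoding chondromodulin (2.74), Nkx3-2 (1.04), Spp1 (1.2), Mef2c (0.90), Eln (0.81) and Mfap5 (2.17) were higher too. Barx2 (-2.69), Lox (-2.02), Bmpr1b (-1.09), Fbln5 (-0.99), Thbs4 (-0.91), Mkx (-0.72), Barx1 (-0.57), Trps1 (-0.44) and Fbn2 (-0.27) were lower in PA3.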
